A study of Mus musculus with 6 samples.

Results

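The aldehyde dehydrogenases (Aldh), alcohol dehydrogenases (Adh), aldo-keto reductases (Akr) and retinol dehydrogenases (Rdh) were taken by their gene symbols. The table of 38720 rows held 55 symbols that start with 1 of these family names and a number, after 2 pseudogene symbols were left out. Of the 55, 40 reached a normalized count of 10 in 3 or more of the 6 libraries, namely 19 Aldh, 3 Adh, 10 Akr and 8 Rdh genes. The other 15 stayed below that value and were not tested. A gene can pass on the 3 libraries of 1 group alone, so the 40 are not all genes of these families.

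The mice carried CLDN18-/- or wild-type CLDN18+/+ alleles of claudin 18, a tight junction protein of the gastric epithelium, and all were of the B6:129S5 strain. Their age is labelled as 7 weeks on each sample, but the design text of the series speaks of 7 days. The neck region of the stomach corpus was isolated from frozen, unfixed tissue with a laser (laser capture microdissection), and RNA from it gave 3 Cldn18 knockout and 3 wild-type libraries. The labels do not state that libraries of 1 group come from different animals, so p-values here reflect the spread among libraries alone, possibly a technical one. The captured tissue is a mixture of cells, and fewer cells of a type and less RNA per cell cannot be told apart in it.

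Alcohols and aldehydes arise from the diet, from amino acid, lipid and vitamin breakdown, and from drugs. Adh and Rdh enzymes convert alcohols to aldehydes and ketones and back, Aldh enzymes oxidise aldehydes to acids, and Akr enzymes mostly reduce aldehydes and ketones to alcohols. Vitamin A uses the same order of steps: retinol is oxidised to retinal by Rdh and some Adh enzymes, and retinal is oxidised to retinoic acid, the ligand of the retinoic acid receptors, by enzymes of the Aldh1a group. The stomach is a known site of Adh7 and Aldh3a1.

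The libraries held 37673283 to 52842813 reads on genes, of which the locus Gm26924 took 38.6% to 45.4%. Cldn18 had 13035, 16798 and 15818 normalized counts in the knockout and 30498, 21210 and 23241 in wild-type libraries, and it fell (log2 difference -0.71 ± 0.20, SE; adjusted p = 0.0134 by limma). Which part of the gene is deleted was not known here, and 21.5% of all genes tested were called as lower. The fall of Cldn18 therefore does not by itself check the genotype labels. The tissue label was checked on marker lists of gastric cells: summed over 15 parietal cell markers, the values were 16358 to 26970 in the knockout and 482987 to 625475 in wild-type, and summed over the 10 chief cell markers in the table they were 48304 to 82820 in the knockout and 1821145 to 3020320 in wild-type. The 8 markers of mucous neck cells, a cell type of the gland neck, summed to 90482 to 188123 in the knockout and 77041 to 99494 in wild-type, where this sum was below the chief and parietal sums. The lists differ in number and length of genes. Wild-type replicates 2 and 3 stood apart from replicate 1 in 8.19% of genes, those with values at least 3 times as high in replicate 2 and at least 1.5 times as high in replicate 3. Among the 40 genes only Rdh10 was of this kind.

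Of the 40 genes, 8 were higher and 14 were lower in the knockout, and 18 did not pass the test (limma on log2(normalized count + 1), Benjamini-Hochberg adjusted p under 0.05 over 17432 genes). Over all genes tested 44.7% were called, 23.3% as higher and 21.5% as lower, against 55.0% of the 40 genes, 20.0% as higher and 35.0% as lower. The median log2 difference was -0.22 over the 40 genes and -0.02 over all genes. The groups of 3 libraries did not overlap for 25 of the 40 genes, 7 higher and 18 lower in the knockout, while over all genes they did not overlap for 55.2%, 28.1% higher and 27.1% lower. Without wild-type replicates 2 and 3, 7 of the 40 genes were called as higher and 19 as lower, against 17.2% higher and 14.3% lower over all genes. That setting leaves wild-type replicate 1 alone against 3 knockout libraries, so the spread between libraries comes from the knockout only and the lone wild-type library is assumed to vary alike, here and wherever these 2 libraries are left out below. A change of at least 2-fold was called as lower for 12 of the 40 genes and as higher for 6, set against 15.1% and 11.2% of all genes. Among the Aldh genes 4 were higher, 9 were lower and 6 were not called, with a median log2 difference of -0.24. All 3 Adh genes were lower, with a median of -0.89. Of the 10 Akr genes 1 was higher and none was lower, with a median of -0.15. Of the 8 Rdh genes 3 were higher and 2 were lower, with a median of -0.37.

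**Figure D1:**
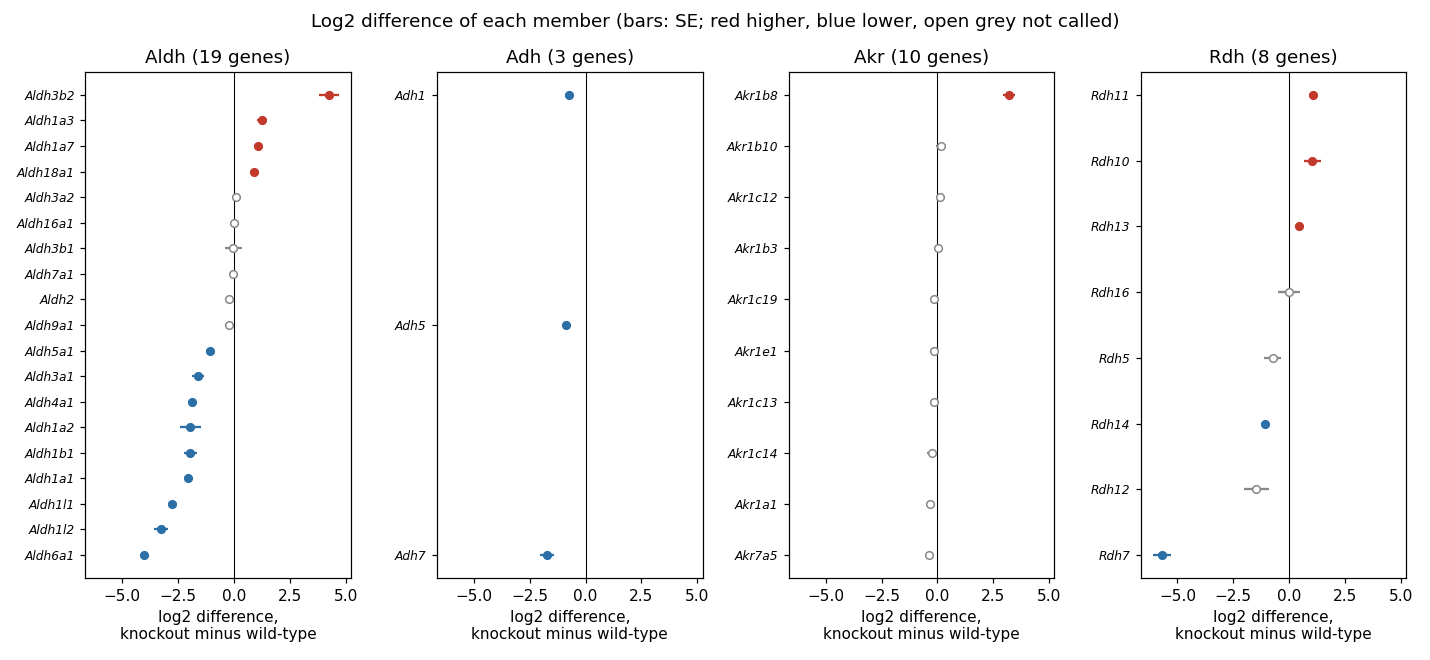
Log2 difference (Cldn18 knockout minus wild-type, horizontal axis) of each gene past the filter, 1 panel per family, with bars of 1 SE. Filled red points were called as higher, filled blue points as lower and open grey points were not called: Rdh7 lies farthest to the left at -5.71 and Aldh3b2 farthest to the right at 4.24.

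Among the enzymes that turn retinol into retinal or back, Rdh7 fell by far more than the others. Rdh7 (chromosome 10, 127884028 to 127888817, minus strand, mm10), a microsomal short-chain dehydrogenase known for acting on cis-retinols and hydroxysteroids, had 15.1, 58.4 and 32.7 normalized counts in the knockout against 1935, 1816 and 1304 in wild-type. These knockout values rest on 16, 79 and 34 reads. The difference of -5.71 ± 0.40 on the log2 scale (SE; adjusted p = 2.98e-06, limma) ranked 48th from the lowest of 17432 genes, and the mean was 47.6-fold lower. Rdh14, which encodes a retinal reductase, had 277, 330 and 329 in the knockout and 705, 729 and 545 in wild-type. All 3 of its knockout libraries lay below all 3 wild-type libraries, at a log2 difference of -1.07 ± 0.18 (adjusted p = 0.000884).

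Rdh11, Rdh10 and Rdh13 rose. Rdh11, a retinal reductase of the endoplasmic reticulum, had 1073, 1388 and 1293 normalized counts in the knockout and 690, 603 and 502 in wild-type, without overlap (log2 1.07 ± 0.17, limma adjusted p = 0.00062). Rdh10, the enzyme that makes most of the retinal of the mouse embryo, had 3374, 2634 and 6002 in the knockout and 1069, 3326 and 1743 in wild-type. The groups overlapped, since wild-type replicate 2 lay above knockout replicate 2, and knockout replicate 3 was the highest of all. Its log2 difference of 1.04 ± 0.38 had an adjusted p of 0.0489. It was 0.64 (adjusted p = 0.14) without wild-type replicate 1 and 0.70 (adjusted p = 0.192) without knockout replicate 3. Against wild-type replicate 1 alone it was 1.82, a value that has no wild-type replicate behind it. The call was also lost without knockout replicate 1 (adjusted p = 0.0852) and without wild-type replicate 3 (adjusted p = 0.14). Rdh13, a retinal reductase of mitochondria, had 2289, 1947 and 1928 in the knockout and 1798, 1415 and 1363 in wild-type. Its groups did not overlap, but the difference was small (log2 0.44 ± 0.15, adjusted p = 0.0383). It was 0.19 against wild-type replicate 1 alone, and the call was lost without any 1 library other than wild-type replicate 1 (adjusted p 0.0689 to 0.168).

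The remaining Rdh genes were at low levels and were not called. Rdh12, a retinal reductase of photoreceptors, had 18.9, 7.39 and 16.3 normalized counts in the knockout and 68.5, 27.2 and 30.1 in wild-type, with no overlap (log2 -1.47 ± 0.57, limma adjusted p = 0.0583). Rdh5, the cis-retinol dehydrogenase of the retinal pigment epithelium, had 26.9 to 37.7 in the knockout and 45.7 to 61.2 in wild-type (log2 -0.73 ± 0.38, adjusted p = 0.14). Rdh5 overlaps Bloc1s1 on the same strand, and Bloc1s1 fell (log2 -1.04, adjusted p = 0.00439). Rdh16, a microsomal retinol dehydrogenase encoded in the same stretch of chromosome 10 as Rdh7, had 24.4 to 48.2 in the knockout and 22.0 to 59.2 in wild-type, and these ranges overlapped.

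The Adh genes, which encode the cytosolic dehydrogenases of ethanol, retinol and formaldehyde, fell together. Adh7, the class IV enzyme of the upper digestive tract, had 898, 1227 and 2345 normalized counts in the knockout and 6195, 3668 and 4233 in wild-type. Knockout replicate 3 was the highest of its group but still below every wild-type library, and the mean was 3.15-fold lower (log2 -1.74 ± 0.31, limma adjusted p = 0.00123). Adh5, the class III enzyme that oxidises the glutathione adduct of formaldehyde, had 1532, 1501 and 1328 in the knockout and 2657, 3217 and 2258 in wild-type (log2 -0.89 ± 0.16, adjusted p = 0.00111). Adh1, the class I enzyme best known from the liver, had 891, 796 and 644 in the knockout and 1425, 1258 and 1250 in wild-type (log2 -0.76 ± 0.16, adjusted p = 0.00288). None of the 3 genes had overlapping groups.

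The genes for the oxidation of retinal split in direction. Aldh1a1, the cytosolic retinal dehydrogenase of many adult tissues, had 2383, 1817 and 1828 normalized counts in the knockout and 9603, 7782 and 7651 in wild-type, a 4.15-fold lower mean (log2 -2.06 ± 0.16, limma adjusted p = 5.54e-06). Aldh1a2, the retinal dehydrogenase of embryonic mesoderm, had 40.6, 36.9 and 16.3 in the knockout and 174, 130 and 68.0 in wild-type (log2 -1.95 ± 0.47, adjusted p = 0.00652). Its groups did not overlap, and wild-type replicate 3 lay nearest to the knockout values. Aldh1a3, the retinal dehydrogenase of the eye and nasal epithelia, moved the other way, with 637, 551 and 954 in the knockout and 328, 324 and 232 in wild-type (log2 1.25 ± 0.24, adjusted p = 0.00159). Aldh1a7, a rodent relative of Aldh1a1 with little known activity on retinal, also rose, with 1001, 977 and 821 in the knockout and 506, 357 and 453 in wild-type (log2 1.10 ± 0.18, adjusted p = 0.000664). In counts per kb of exon, Aldh1a1 averaged 407 in the knockout and 1690 in wild-type. Aldh1a7 averaged 452 in the knockout and 212 in wild-type. An exon length here counts the exons of all annotated transcripts, 4937 bases for Aldh1a1 and 2066 for Aldh1a7. Their longest protein-coding transcripts had 2358 and 2066 bases. Which of the 2 genes was higher per kb in the knockout therefore depends on the length used.

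Aldh1a1 and Aldh1a7 are neighbours on chromosome 19 (20492715 to 20727562, mm10), on opposite strands, and their sequences are shown because they are alike while the genes moved in opposite directions. Their transcripts were 88.8% identical over 2036 aligned bases, so reads that fit both genes could have been split or dropped in counting. Alike too were the bases before their start sites, taken from RefSeq (GRCm38.p6) and written 5′ to 3′ on the strand of the gene. Capitals mark a run of 65 bases present in both. The Aldh1a1 stretch is chr19:20601718-20601967 on the plus strand, before the second of its 2 RefSeq start sites, and the Aldh1a7 stretch is chr19:20727557-20727806 on the minus strand.
Aldh1a1: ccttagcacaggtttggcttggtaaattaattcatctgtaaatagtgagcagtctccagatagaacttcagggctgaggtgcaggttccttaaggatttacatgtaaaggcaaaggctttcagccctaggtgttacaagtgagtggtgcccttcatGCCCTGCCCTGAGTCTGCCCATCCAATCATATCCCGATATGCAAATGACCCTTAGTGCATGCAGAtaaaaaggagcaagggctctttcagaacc
Aldh1a7: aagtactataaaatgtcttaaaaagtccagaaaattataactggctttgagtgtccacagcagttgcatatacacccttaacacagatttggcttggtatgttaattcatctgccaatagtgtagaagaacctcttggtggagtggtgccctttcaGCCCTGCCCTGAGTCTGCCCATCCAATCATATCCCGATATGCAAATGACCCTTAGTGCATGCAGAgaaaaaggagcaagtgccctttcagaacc

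With 50 bases after the start included, 153 of the last 170 bases of the 2 windows were identical (90.0%). Over 625 pairs of such 300-base windows from different genes of the families, the median longest shared run was 8 bases. A longer shared run, 75 bases, was found only between Akr1c12 and Akr1c13, neither of which was called, and the next longest was 15 bases.

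**Figure D2:**
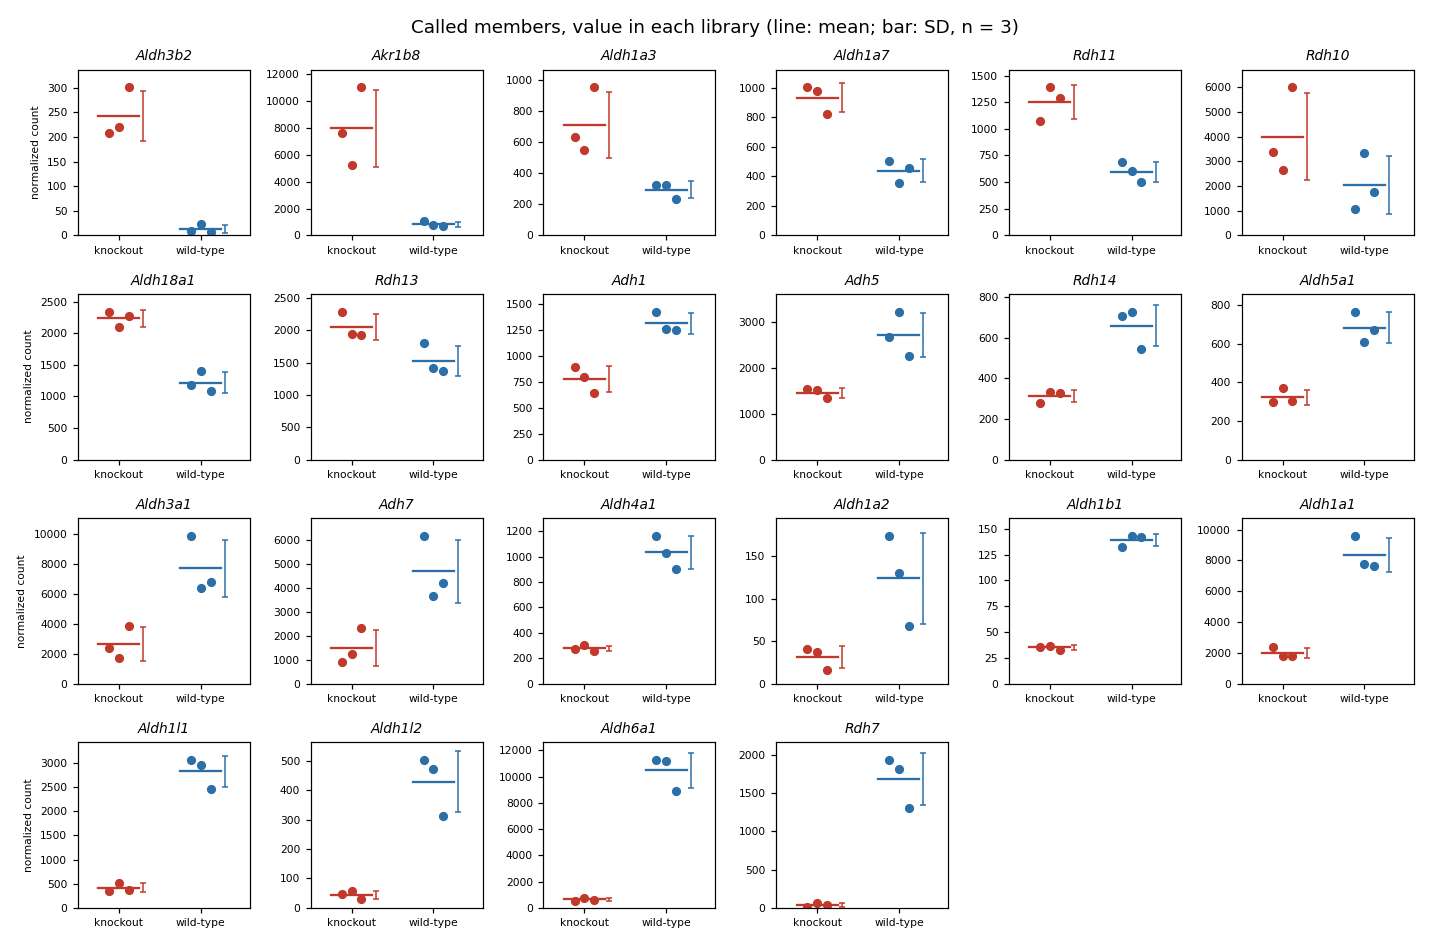
Normalized count (vertical axis, from 0, a scale of its own in each panel) of the 22 called genes in the 3 Cldn18 knockout libraries (red, left) and the 3 wild-type libraries (blue, right); the line is the mean and the bar is 1 SD (n = 3). The groups are apart in 21 panels, and in the Rdh10 panel wild-type replicate 2 at 3326 lies above knockout replicate 2 at 2634.

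Both folate enzymes of the Aldh family fell. Aldh1l1 encodes the cytosolic formyltetrahydrofolate dehydrogenase, which releases the formyl group of folate as carbon dioxide. It had 353, 519 and 372 normalized counts in the knockout and 3069, 2953 and 2469 in wild-type (log2 -2.78 ± 0.18, limma adjusted p = 1.6e-06). Aldh1l2, the mitochondrial form, had 46.3, 56.9 and 29.8 in the knockout and 504, 473 and 312 in wild-type, a 9.69-fold lower mean (log2 -3.27 ± 0.31, adjusted p = 2.32e-05). Aldh1l2 overlaps D10Wsu102e on the opposite strand. D10Wsu102e was higher in the knockout (log2 0.79, adjusted p = 0.0016), and no source used here says whether reads were counted by strand.

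Of the 6 Aldh genes of amino acid and amine metabolism, 3 fell and 1 rose. Aldh6a1 (chromosome 12, 84430717 to 84451004, minus strand, mm10), the mitochondrial methylmalonate semialdehyde dehydrogenase of valine breakdown, fell most, with 549, 752 and 628 normalized counts in the knockout and 11283, 11221 and 8938 in wild-type. Its mean was 16.3-fold lower (log2 -4.03 ± 0.16, limma adjusted p = 8.03e-08). Aldh4a1, which completes the breakdown of proline to glutamate, had 269, 301 and 260 in the knockout and 1164, 1031 and 900 in wild-type (log2 -1.89 ± 0.17, adjusted p = 1.31e-05). Aldh5a1, the succinic semialdehyde dehydrogenase that ends GABA breakdown, had 300, 369 and 302 in the knockout and 766, 610 and 673 in wild-type (log2 -1.08 ± 0.17, adjusted p = 0.000666). Aldh18a1, which works in the other direction by making the precursor of proline from glutamate, had 2345, 2093 and 2267 in the knockout and 1175, 1399 and 1080 in wild-type (log2 0.88 ± 0.14, adjusted p = 0.000673). Aldh7a1, an enzyme of lysine breakdown, averaged 914 ± 62.5 in the knockout and 951 ± 224 in wild-type (SD, n = 3 each). Aldh9a1, an enzyme of carnitine synthesis, averaged 1725 ± 135 in the knockout and 2048 ± 334 in wild-type (SD, n = 3 each). Neither was called (adjusted p = 0.904 for Aldh7a1 and 0.226 for Aldh9a1). Aldh7a1 overlaps Phax on the opposite strand, and Phax rose (log2 0.53, limma adjusted p = 0.0186).

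The enzymes of acetaldehyde and medium-chain aldehydes included the highest Aldh level per length. Aldh3a1, the cytosolic dehydrogenase known from stomach and cornea, had 2362, 1679 and 3856 normalized counts in the knockout and 9859, 6356 and 6805 in wild-type (log2 -1.60 ± 0.28, limma adjusted p = 0.000957). As for Adh7, knockout replicate 3 and wild-type replicate 1 were the highest of their groups, and the groups did not overlap. Aldh1b1, a mitochondrial acetaldehyde dehydrogenase, had 35.9, 36.9 and 32.7 in the knockout and 132, 143 and 142 in wild-type (log2 -1.95 ± 0.30, adjusted p = 0.000457). Aldh2, the main mitochondrial acetaldehyde dehydrogenase, had 4549, 4022 and 5009 in the knockout and 6698, 4665 and 4489 in wild-type. The groups overlapped and the difference did not pass the test (log2 -0.20 ± 0.18, adjusted p = 0.376).

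The fatty aldehyde enzymes held the largest increase. Aldh3b2 (chromosome 19, 3972328 to 3981646, plus strand, mm10), which encodes a membrane-bound dehydrogenase of lipid aldehydes, had 208, 221 and 301 normalized counts in the knockout and 8.57, 23.5 and 7.77 in wild-type. Among the wild-type libraries only replicate 2 reached the filter value of 10. The wild-type values rest on 7, 19 and 8 reads, so the 18.3-fold higher mean is known only roughly. On the log2 scale it differed by 4.24 ± 0.45 (adjusted p = 4.24e-05, limma), the 58th highest of 17432 genes, and 3.49 with 10 in place of 1 added before the logarithm. Its neighbour Aldh3b1, of the same activity, averaged 49.6 ± 3.65 in the knockout and 52.7 ± 21.3 in wild-type (SD, n = 3 each) and was not called (adjusted p = 0.975). The transcripts of Aldh3b2 were 85.5% identical to those of Aldh3b1 over 1309 aligned bases and 88.0% identical to those of Aldh3b3 over 1939. Aldh3b3 had no row under this symbol. Reads that fit more than 1 of these genes could have been split or dropped in counting. Aldh3a2, the microsomal fatty aldehyde dehydrogenase, had 3846, 3695 and 4711 in the knockout and 4629, 3530 and 3460 in wild-type, which overlapped (adjusted p = 0.713). Aldh16a1, which was not counted among the fatty aldehyde enzymes, averaged 718 ± 33.6 in the knockout and 714 ± 124 in wild-type (SD, n = 3 each). It was not called either (adjusted p = 0.93).

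In the aldo-keto reductases, Akr1b8 rose and none of the other 9 genes was called. Akr1b8 (chromosome 6, 34354119 to 34368463, plus strand, mm10) encodes a reductase of the aldose reductase group, known for acting on fatty aldehydes and retinal and as a gene induced by fibroblast growth factor. It had 7625, 5267 and 11034 normalized counts in the knockout and 1062, 756 and 695 in wild-type, a 9.52-fold higher mean (log2 3.21 ± 0.25, limma adjusted p = 6.42e-06). The lowest knockout library lay far above the highest wild-type library, and the difference was the 115th highest of 17432 genes. Akr1b3, which encodes aldose reductase, had 1101, 978 and 1056 in the knockout and 1211, 948 and 943 in wild-type (log2 0.02 ± 0.15, adjusted p = 0.911). Akr1b10 averaged 256 ± 38.2 in the knockout and 229 ± 50.7 in wild-type (SD, n = 3 each; adjusted p = 0.577). The transcripts of Akr1b8 and Akr1b10 were 87.4% identical over 746 aligned bases.

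The 250 bases before the RefSeq start sites of Akr1b8 and Akr1b10 (GRCm38.p6, plus strand) are shown because these neighbours are near copies and only Akr1b8 was called. The Akr1b8 stretch is chr6:34353896-34354145 and the Akr1b10 stretch is chr6:34383997-34384246. Capitals mark the GC box core GGGCGG on either strand.
Akr1b8: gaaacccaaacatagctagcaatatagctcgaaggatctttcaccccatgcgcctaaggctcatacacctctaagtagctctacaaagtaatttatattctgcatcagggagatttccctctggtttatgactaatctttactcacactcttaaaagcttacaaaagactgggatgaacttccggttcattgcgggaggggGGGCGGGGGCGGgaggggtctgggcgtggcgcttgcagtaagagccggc
Akr1b10: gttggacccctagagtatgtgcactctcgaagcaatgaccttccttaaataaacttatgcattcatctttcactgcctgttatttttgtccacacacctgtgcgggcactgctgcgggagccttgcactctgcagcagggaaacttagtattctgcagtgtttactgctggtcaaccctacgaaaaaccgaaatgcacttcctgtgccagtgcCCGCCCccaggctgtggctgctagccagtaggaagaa

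Unlike the Aldh1a pair, the Akr1b pair shared no run longer than 9 bases in their 300-base windows. Akr1b8 held 2 GC box cores, 49 and 43 bases before the start site and touching each other, and Akr1b10 held 1, 37 bases before the start site. The antioxidant response element core TGACNNNGC, searched on both strands, was in neither window.

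The remaining Akr genes, which reduce sugars, steroids and other carbonyl compounds, were not called. Akr1a1, the aldehyde reductase that also makes the precursor of ascorbate in mice, had 13742, 12519 and 14541 normalized counts in the knockout and 20338, 16845 and 15021 in wild-type. The groups did not overlap, but the difference did not pass the test (log2 -0.35 ± 0.17, limma adjusted p = 0.126). Akr1c14, a hydroxysteroid dehydrogenase, had 4662, 5207 and 3254 in the knockout and 6177, 4301 and 4958 in wild-type, with overlap (log2 -0.25 ± 0.20, adjusted p = 0.346). Akr7a5, an aflatoxin aldehyde reductase, had 764 to 833 in the knockout and 846 to 1198 in wild-type without overlap (log2 -0.37 ± 0.16, adjusted p = 0.0865). For Akr1c12, Akr1c13 and Akr1c19, relatives of the hydroxysteroid dehydrogenases, and for Akr1e1, an anhydrofructose reductase, the log2 differences ran from -0.17 to 0.12 (adjusted p 0.391 to 0.55). The transcripts of Akr1c12 and Akr1c13 were 94.5% identical over 1262 aligned bases, so the split of reads between them is uncertain.

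The Aldh and Adh sums were lower in the knockout without overlap, and single genes took different shares of the Akr and Rdh sums. Summed per kb of exon, Aldh counts were 5831 ± 733 in the knockout and 11827 ± 1954 in wild-type, and Adh counts were 1010 ± 125 in the knockout and 2329 ± 378 in wild-type (SD, n = 3 each). The Akr sum was 16318 ± 2005 in the knockout and 13446 ± 2184 in wild-type, and the Rdh sum was 1890 ± 419 in the knockout and 2386 ± 419 in wild-type (SD, n = 3 each), and for both the groups overlapped. Summed without division by length, Rdh counts ran the other way, at 7740 ± 1703 in the knockout and 6650 ± 1222 in wild-type (SD, n = 3 each), also with overlap. No 2-sided exact permutation test of 3 against 3 can give a p under 0.1, so the sums are given without one. The lengths count the exons of all annotated transcripts, so the sums and shares weigh genes unevenly. For Akr1b3 this was 8384 bases against 1387 in its longest protein-coding transcript, and for Akr1b8 it was 1499 against 1358. Within the Akr sum, Akr1b8 took 32.0% ± 7.81 in the knockout and 4.13% ± 0.29 in wild-type. The per-length level of Akr1a1 was 4946 in the knockout and 6328 in wild-type. Within the Rdh sum, Rdh7 took 1.17% ± 0.87 in the knockout and 42.1% ± 5.05 in wild-type. Rdh10 took 49.4% ± 10.8 of the same sum in the knockout and 20.2% ± 9.03 in wild-type. Within the Aldh sum, Aldh6a1 took 1.94% ± 0.50 in the knockout and 15.4% ± 1.96 in wild-type, Aldh1a1 took 7.06% ± 1.43 in the knockout and 14.3% ± 0.51 in wild-type, and Aldh3a1 took 22.7% ± 6.74 in the knockout and 33.2% ± 3.20 in wild-type (SD, n = 3 each).

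**Figure D3:**
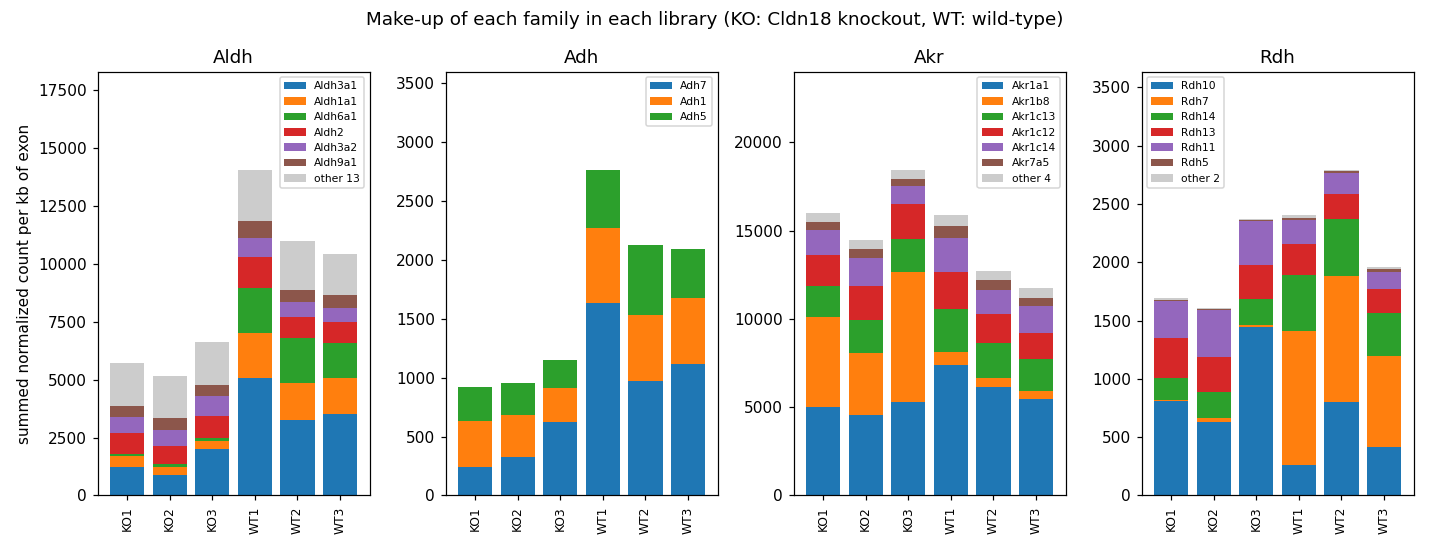
Summed normalized count per kb of exon (vertical axis) of each family in the 3 Cldn18 knockout libraries (KO, left) and the 3 wild-type libraries (WT, right), split by gene. The Akr1b8 segment is 32.0% of the Akr sum in the knockout against 4.13% in wild-type, and the Rdh7 segment is 1.17% of the Rdh sum in the knockout against 42.1% in wild-type.

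Several of the genes lie next to each other, and tested neighbours differed in their calls in some of these stretches and not in others. Of the 55 symbols, Rdh1, Rdh9, Rdh16, Rdh19 and Rdh7 lie in the 129 kb stretch of chromosome 10 from 127759721 to 127888817. Of these 5, only Rdh7 was called, Rdh16 was not, and the other 3 were below the filter. The transcripts of Rdh7 and Rdh16 were 86.3% identical over 1031 aligned bases. Rdh16f1, which overlaps Rdh1 and Rdh9 in this stretch, had no row under this symbol. Its transcripts were 92.5% identical to Rdh16 over 2323 aligned bases and 85.9% identical to Rdh7 over 990. Hsd17b6, which is outside these families by its symbol, was 90.6% identical to Rdh7 over 341 aligned bases. It had 32.1, 64.3 and 49.0 normalized counts in the knockout and 299, 195 and 227 in wild-type. On chromosome 6 from 34302434 to 34423142, Akr1b8 rose between Akr1b3 and Akr1b10, which were not called, and Akr1b7, which was below the filter. On chromosome 3 from 138217760 to 138455499, Adh7, Adh1 and Adh5 fell, and Adh6a, Adh6b and Adh4 were below the filter. On chromosome 13 from 4049011 to 4609174 none of the 5 genes past the filter, Akr1c14, Akr1c13, Akr1c19, Akr1c12 and Akr1e1, was called.

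**Figure D4:**
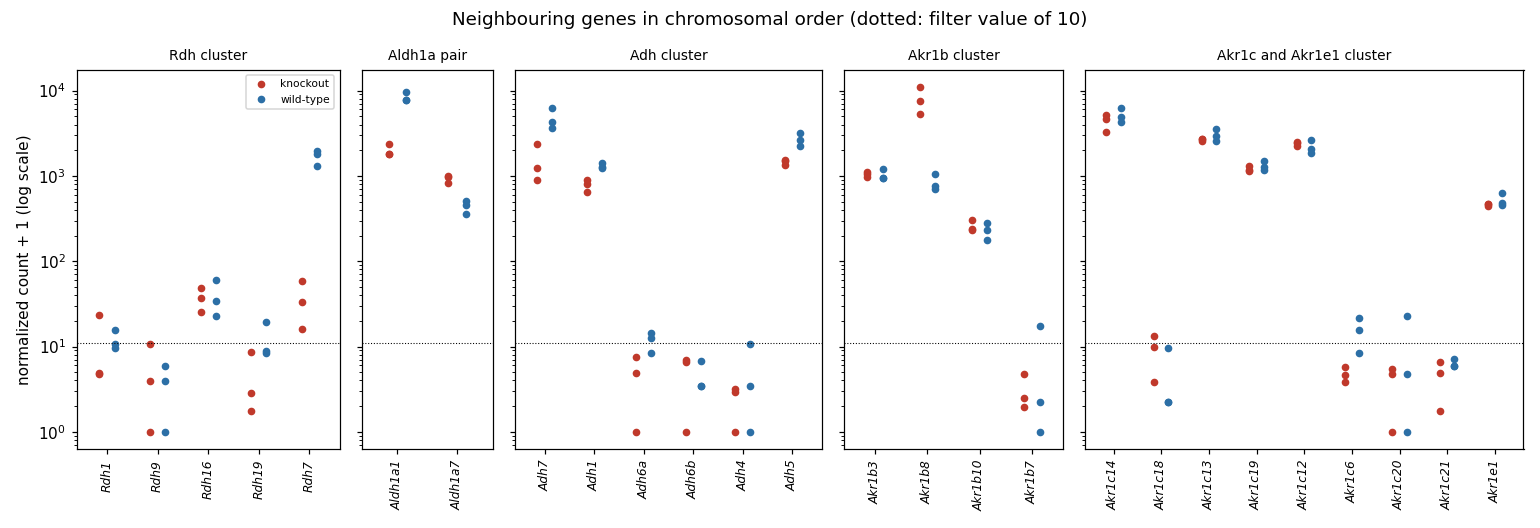
Normalized count + 1 (vertical axis, log scale) of neighbouring genes in the order of their positions, with 3 Cldn18 knockout libraries (red, left of each name) and 3 wild-type libraries (blue, right). The dotted line marks the filter value of 10. Rdh7 is the gene of its panel with the groups farthest apart, Akr1b8 likewise, and Aldh1a1 and Aldh1a7 differ in opposite directions.

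RefSeq start sites were at hand for 31 of the 40 genes (36 windows of 300 bases). The antioxidant response element core TGACNNNGC, on either strand, was in 4 of the 31, Akr1c19, Aldh1a2, Aldh9a1 and Rdh14, and in 16.8% of the 11600 tested genes with a window. The TATA box core TATAAA on the strand of the gene was in 3 of the 31, Adh5, Aldh1a7 and Rdh16, and in 6.09% of tested genes. The GC box core GGGCGG on either strand was in 11 of the 31 and in 64.7% of tested genes. The element TNAAGGTCA, searched on both strands and known from estrogen-related receptors, was in none of the 31 and in 1.03% of tested genes. The direct repeat of AGGTCA spaced by 5 bases, searched on both strands and known from retinoic acid receptors, was in none of the 31 and in 3 of 32851 windows overall. These matches describe letters in the windows and nothing more.

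Other genes of vitamin A handling also split in direction. Of 28 listed genes, 20 passed the filter, of which 6 were higher, 8 were lower and 6 were not called (70.0% called, against 44.7% of all genes), with a median log2 difference of -0.27. Without wild-type replicates 2 and 3 fewer of them were called in both directions, as was so over all genes. Crabp1 and Crabp2, carrier proteins of retinoic acid, both fell. Crabp1 averaged 7.47 ± 6.33 in the knockout and 236 ± 205 in wild-type (SD, n = 3 each; log2 -4.49 ± 0.82, limma adjusted p = 0.00131). Crabp2 averaged 3.98 ± 3.59 in the knockout and 140 ± 140 in wild-type (SD, n = 3 each; log2 -4.48 ± 0.83, adjusted p = 0.00149). Against wild-type replicate 1 alone the log2 differences were -2.58 for Crabp1 and -2.84 for Crabp2, and neither was called. Both were raised in wild-type replicates 2 and 3, and Crabp1 had 41.6, 449 and 216 in wild-type replicates 1 to 3. Rbp7, a carrier of retinol, averaged 208 ± 28.3 in the knockout and 814 ± 117 in wild-type (SD, n = 3 each; log2 -1.96 ± 0.19, adjusted p = 2.44e-05). Fabp5, which carries fatty acids and retinoic acid, averaged 15831 ± 3861 in the knockout and 4274 ± 1193 in wild-type (SD, n = 3 each; log2 1.90 ± 0.22, adjusted p = 8.93e-05).

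Among 21 further enzymes of carbonyl compounds past the filter, 2 were higher, 8 were lower and 11 were not called. The share called, 47.6%, was near the 44.7% of all genes, with a median log2 difference of -0.65. Without wild-type replicates 2 and 3 the called genes of this list were all lower, while over all genes fewer were called in both directions. Adhfe1, a hydroxyacid oxidoreductase of mitochondria, averaged 19.6 ± 12.3 in the knockout and 659 ± 78.6 in wild-type (SD, n = 3 each; log2 -5.26 ± 0.49, limma adjusted p = 1.96e-05). Aox3, an aldehyde oxidase, averaged 24.3 ± 4.75 in the knockout and 416 ± 81.6 in wild-type (SD, n = 3 each; log2 -4.04 ± 0.29, adjusted p = 3.47e-06). Cat, which encodes catalase, a minor oxidant of ethanol, averaged 796 ± 144 in the knockout and 5711 ± 1076 in wild-type (SD, n = 3 each; log2 -2.84 ± 0.19, adjusted p = 1.89e-06). Hagh, an enzyme of methylglyoxal removal, averaged 484 ± 23.1 in the knockout and 1393 ± 189 in wild-type (SD, n = 3 each; log2 -1.52 ± 0.15, adjusted p = 3.35e-05).

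Targets of the transcription factor NRF2 were listed because Akr and Aldh genes are often named among them, and the list holds none of the 40 genes. Of its 32 genes, 17 were higher, 3 were lower and 12 were not called (62.5% called, against 44.7% of all genes), with a median log2 difference of 0.62. Without wild-type replicates 2 and 3 fewer were higher, as was so over all genes, and more were lower. Slc7a11, the cystine transporter, averaged 2800 ± 1412 in the knockout and 90.8 ± 25.2 in wild-type (SD, n = 3 each; log2 4.85 ± 0.33, limma adjusted p = 2.26e-06). Hmox1, which encodes heme oxygenase, averaged 429 ± 227 in the knockout and 74.7 ± 10.1 in wild-type (SD, n = 3 each; log2 2.38 ± 0.35, adjusted p = 0.000376). Gpx2, a glutathione peroxidase of the digestive tract, averaged 9523 ± 810 in the knockout and 2490 ± 417 in wild-type (SD, n = 3 each; log2 1.94 ± 0.15, adjusted p = 6.76e-06). Fth1, the ferritin heavy chain, averaged 16128 ± 2033 in the knockout and 55387 ± 11735 in wild-type (SD, n = 3 each; log2 -1.77 ± 0.21, adjusted p = 0.000104).

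Marker lists of the cell types that the captured tissue could hold are given as counts, beside 44.7% called over all genes. Of the parietal cell list 14 of 15 were lower and none was higher, and of the chief cell list 6 of 9 were lower and none was higher. Of the mucous neck cell list 5 of 8 were higher and 2 were lower, and of the surface pit cell list 5 of 9 were lower and 1 was higher. Endothelial markers were lower for 8 of 10, with sums of 4018 to 5569 in the knockout and 9592 to 15401 in wild-type. Erythrocyte markers were lower for 5 of 6, smooth muscle markers for 4 of 8, and fibroblast markers were higher for 4 of 9. Immune markers were higher for 3 of 8 and lower for 1, and enteroendocrine markers were higher for 6 of 9 and lower for 1. Of the hepatocyte list 2 of 5 were lower and 1 was higher, with log2 differences from -6.07 to 1.99 and a median of -1.03. Summed over its 7 markers, the values were 1022 to 1690 in the knockout and 40527 to 59594 in wild-type. This gap was wider than that of the median hepatocyte marker, so the sum does not describe the list as a whole. The share called was near that of all genes for the fibroblast list (44.4%) and for the smooth muscle and immune lists (4 of 8 each), and it was 93.3% for the parietal and 87.5% for the mucous neck list. Reads from the mitochondrial genome took 1.25% to 1.56% in the knockout and 3.28% to 4.28% in wild-type libraries. No marker of any of these lists was at 0 in all libraries. The part of these cell types in the differences of the dehydrogenase and reductase genes was not tested.

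Stratified squamous epithelium, which lines the mouse forestomach, is also known to express Adh7 and Aldh3a1. Summed over its 14 markers, the values were 7035, 4827 and 14559 in knockout replicates 1 to 3 and 820, 8466 and 3192 in wild-type replicates 1 to 3. Of the 11 markers past the filter 2 were higher, 5 were lower and 4 were not called (63.6% called), and 5 of the 11 were raised in wild-type replicates 2 and 3. Without those 2 libraries fewer were lower, as was so over all genes, but more were higher. Adh7 and Aldh3a1 were highest in knockout replicate 3 among the knockout libraries, as this sum was, and were highest in wild-type replicate 1 among wild-type libraries, where this sum was lowest. The part of this tissue in their values was not tested.

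Within the wild-type group, replicate 1 was the highest of 3 for 31 of the 40 genes and replicate 3 was the lowest for 27. Over all genes tested these shares were 46.1% and 40.2%. No such order was seen in the knockout, where replicates 1, 2 and 3 were the highest for 13, 15 and 12 of the 40 genes. The coefficient of variation between libraries had a median of 12.5% in the knockout and 17.3% in wild-type over the 40 genes.

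The 15 genes below the filter had values from 0 to 22.2. They were Aldh8a1, Adh4, Adh6a, Adh6b, Akr1b7, Akr1c6, Akr1c18, Akr1c20, Akr1c21, Akr1cl, Akr1d1, Rdh1, Rdh8, Rdh9 and Rdh19. Just inside the filter, the third-highest value was 27.2 for Rdh12, 36.5 for Rdh16 and 45.7 for Rdh5. Just outside it, that value was 9.71 for Rdh1, 9.44 for Aldh8a1 and 8.74 for Akr1c18.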

How the data were processed

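The authors deposited normalized counts per gene, a signal with no negative values. Dividing each library by the value of its smallest step returned whole reads (tolerance 0.05 reads) for 100% of entries. Per the submitters' processing notes STAR, featureCounts, DESeq and mm10 were used, without roles, versions or strand setting. The authors' deposited comparison table, which lists means, p-values and the ratio of the groups, served only as an alternative. Groups came from the genotype labels.

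Differences (knockout minus wild-type) were fitted with limma 3.58.1 in R 4.3.3, with a mean trend, on log2(normalized count + 1), which understates changes of low genes. Tests were two-sided over the 17432 genes past the filter. Alternatives varied the pseudocount, filter, scaling, variance model, libraries and test (edgeR 4.0.16 and DESeq2 1.42.0 on recovered reads). The procedure was tested on simulated data. Members and lists were chosen with earlier results of these data known. Called genes whose higher group averaged 100 or more, and genes with 1 of the 3 highest means of their family, are given in full, as are up to 4 called genes of each of 3 context lists, and others in short. Positions and exon lengths are from GENCODE vM21 (mm10), and a length counts the exons of all annotated transcripts of a gene. Transcripts were compared with blastn 2.17.0 at 85% identity over at least 150 bases.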

Additional observations from a re-analysis of the deposited data

How the results depend on the processing

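Of the 22 called genes, 20 stayed called in the same direction under all 19 alternatives, and none reversed. Of the 18 genes not called, 4 were unaltered in direction and call under all 19, 8 reversed in at least 1, and 6 others (Akr1a1, Akr7a5, Aldh2, Aldh9a1, Rdh12 and Rdh5) were called in at least 1. Rdh10 and Rdh13 were each lost under 11 of the 19. edgeR called 8047 genes, of which limma called 7588, and 21 members, all called by limma too. The count of all genes called as lower, 3743, was 2488 without wild-type replicates 2 and 3 and 2025 in the authors' deposited table. Under quantile normalization, which moved the median of all genes to 0.10, 2 Akr genes were lower (none in the report). There were also 2 without wild-type replicates 2 and 3 and 1 with DESeq2, and 0 to 1 when 1 library was left out, the 1 without wild-type replicate 3. Of the 3 higher Rdh genes, 1 was left under quantile normalization, without a mean trend and in the authors' deposited table, and 1 to 2 when 1 library was left out. The cause was not tested.

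Reversals touched genes that were not called. Without wild-type replicates 2 and 3 the log2 difference was -0.13 for Akr1b10, -0.21 for Akr1b3, -0.17 for Akr1c12, -0.25 for Aldh16a1, -0.19 for Aldh3a2 and 0.65 for Rdh16. Under quantile normalization it was -0.11 for Akr1b3, -0.020 for Akr1c12, -0.059 for Aldh16a1, -0.080 for Aldh3a2, 0.57 for Aldh3b1 and 0.53 for Rdh16. DESeq2 gave -0.014 for Akr1b3 and -0.020 for Aldh16a1. TMM scaling gave 0.0090 for Aldh3b1 and 0.019 for Rdh16. Array weights gave 0.19 for Aldh3b1 and 0.097 for Aldh7a1. With each library left out in turn, the range was -0.038 to 0.14 for Akr1b3, -0.065 to 0.16 for Aldh16a1, -0.026 to 0.22 for Aldh3a2, -0.22 to 0.29 for Aldh3b1, -0.21 to 0.13 for Aldh7a1 and -0.34 to 0.36 for Rdh16.

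Same-numbered libraries of the groups did not deviate together (correlations -0.0037, 0.021 and -0.17), so the numbers were not taken as pairs. With the replicate number as a block, 7 of the 40 genes were higher and 14 lower, and over all genes 3726 were higher and 3626 lower. Few reads limit the precision of Rdh7 in the knockout, of Aldh3b2 in wild-type and of Rdh12, Rdh16 and Aldh1a2. The SE of the log2 difference was largest for Rdh12 (0.57), Rdh16 (0.49) and Aldh1a2 (0.47).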
